A study of Mus musculus with 5 samples.

Results

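Transcripts of 10 receptors that sense metabolites, oxysterols, lysophospholipids, protons or extracellular nucleotides were compared. The comparison was between 3 libraries labelled ILC3 and 2 libraries labelled CD4 T. The receptors were taken from the deposited count table by their NCBI gene identifiers, as 10 of 27179 rows, with no threshold on their values. All 10 passed the filter on low counts. ILC3 are group 3 innate lymphoid cells, sorted here as cells with CD45, CD127 and a green fluorescent reporter of their lineage but without CD3, and the CD4 T cells carried CD45, CD3 and CD4. Both groups are described as from wild type C57BL/6 mice, 3 in all. How that description goes with the lineage reporter of the sort was not resolved here. The labels give neither age nor which mouse gave which library. With 5 libraries from 3 mice, some libraries must share a mouse, but the main fit treats the 5 libraries as independent. The p-values therefore speak for the spread among these 5 libraries, part of which may be technical, and not for the spread among mice. The labels name no tissue for the sort, and the title of the series names the intestine.

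Most of these receptors are G protein-coupled receptors, and P2rx7 is an ATP-gated ion channel. In the gut such receptors let lymphocytes read products of the microbiota, of dying cells and of local lipid metabolism. The oxysterol receptor GPR183 is known to guide ILC3 towards the lymphoid structures of the intestine, and the short-chain fatty acid receptor FFAR2 is known from colonic ILC3 of mice.

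Ffar2, Gpr183, Gpr65 and Gpr34 were higher in ILC3, and Gpr35 was lower (edgeR quasi-likelihood test, Benjamini-Hochberg adjusted p under 0.05 over the 12747 genes tested). The other 5 receptors, P2ry10, Gpr18, Gpr132, Gpr15 and P2rx7, did not pass. So 4 of 10 were called higher, where 6.46% of all tested genes were, and 1 of 10 was called lower, where 7.21% were. In either direction the share over all genes was 13.7%. The values of the groups did not overlap for 7 of the 10 receptors, as for 55% of all tested genes. They were higher in ILC3 for 5 (25.5% of all genes) and lower for 2 (29.6%). The median log2 fold change of the 10 was 0.77, and that of all tested genes was -0.10. The receptors were chosen with earlier results of these data known, so these shares and medians describe the 10 and test nothing about such receptors.

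**Figure D1:**
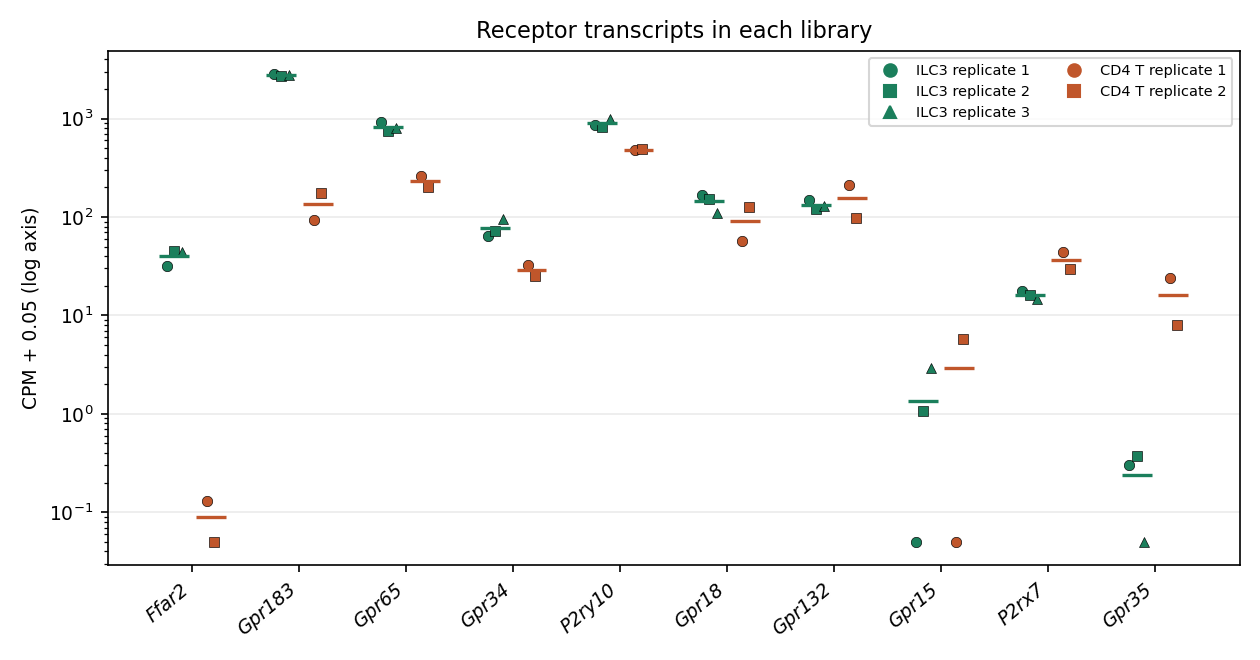
Counts per 1000000 counts (CPM, TMM scale) plus 0.05 of the 10 receptors on a log axis, with a point for each of the 3 ILC3 and 2 CD4 T libraries and a bar at each group's mean. Gpr183 lay at 2719 to 2831 CPM in ILC3, above 93.1 and 175 CPM in CD4 T, while the points of Gpr18, Gpr132 and Gpr15 overlapped between the groups.

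The libraries held 15123715 to 25956023 counts each, and levels are given as CPM, counts per 1000000 counts on the TMM scale. A gene with no count may still have had up to 3, or 0.108 to 0.192 CPM by library, a limit for counting error only. A fold against a group with no count was taken against 3 counts over that whole group, which is 0.0496 CPM over the ILC3 libraries and 0.0685 CPM over the CD4 T libraries, and is written as "at least". Immunoglobulin and T cell receptor segment genes took 6.55% to 29.8% of the counts in ILC3, against 17% and 10.2% in CD4 T. The 5 plasma cell markers, mostly Jchain, summed to 18810 to 101530 CPM in ILC3, against 35060 and 21672 CPM in CD4 T. The 6 B cell markers summed to 135 to 280 CPM in ILC3, against 88.6 and 141 CPM in CD4 T. No marker of these 2 lists was called. All 8 ILC3 markers read, among them Il22, Il23r and Kit, were called higher in ILC3. The 6 T cell markers summed to 251 to 688 CPM in ILC3, against 1028 and 2511 CPM in CD4 T, and 4 of the 6 were called lower in ILC3. Cd3e and Cd3g, CD3 chains, overlapped between the groups and were not called: Cd3g was 361, 470 and 160 CPM in ILC3, against 279 and 1308 CPM in CD4 T. Cd4 was 6.27, 2.81 and 6.07 CPM in ILC3, against 142 and 89.9 CPM in CD4 T. The coreceptor gene Cd8b1 of CD8 T cells was 1.19, 0 and 0.0584 CPM in ILC3, against 336 and 432 CPM in CD4 T. Trdc, a marker of gamma-delta T cells, went the other way, at 474, 353 and 192 CPM in ILC3, against 0.831 and 2.27 CPM in CD4 T. It was called higher in ILC3 (edgeR adjusted p of 0.00343). Together 9 macrophage and monocyte markers summed to 170 to 219 CPM in ILC3, against 2106 and 3077 CPM in CD4 T, and 8 of the 9 were called lower in ILC3. The 7 markers of plasmacytoid dendritic cells summed to 169 to 218 CPM in ILC3, against 2291 and 1836 CPM in CD4 T, with 6 of 7 called lower in ILC3. Of 6 conventional dendritic markers, 2 were called higher and 3 lower in ILC3. Zbtb46, among the higher ones, was 36.3, 20.9 and 44.1 CPM in ILC3, against 1.5 and 1.24 CPM in CD4 T. Clec9a, among the lower ones, was 0, 0 and 0.0584 CPM in ILC3, against 132 and 124 CPM in CD4 T. Cd8a, another CD8 chain that some dendritic cells also carry, was 0.036, 0 and 0.0584 CPM in ILC3, against 245 and 189 CPM in CD4 T. None of the 16 macrophage and plasmacytoid markers was at 0 in CD4 T, and none was at 0 in all 3 ILC3 libraries. Both "ILC3" and "CD4 T" therefore name the labels of these libraries throughout. In such sorted bulk samples fewer cells of a type and less RNA per cell cannot be told apart.

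Gpr183, also called EBI2, was the most abundant of the 10 receptors in ILC3. It encodes the receptor for dihydroxylated cholesterol products. Gpr183 (NCBI gene 321019, chromosome 14, 121952331 to 121965193 on the minus strand in GRCm38) stood at 2831, 2719 and 2771 CPM in ILC3 replicates 1 to 3, against 93.1 and 175 CPM in CD4 T replicates 1 and 2. The ILC3 libraries lay close together, and the lowest of them was far above the higher CD4 T library. The mean was 2774 ± 55.9 CPM in ILC3 (SD, n = 3), against 134 ± 58.2 CPM in CD4 T (SD, n = 2). The log2 fold change was 4.37 (standard error 0.433, edgeR adjusted p of 0.00347), which is 20.7-fold. It was 4.91 without CD4 T replicate 2 and 3.99 without CD4 T replicate 1, and it passed under every alternative tried. Gpr183 lies inside the span of Ubac2, which runs on the opposite strand and shares no exon bases with it in GENCODE M21. Ubac2 was at 50.5 to 59.9 CPM in ILC3, against 36.3 and 43.6 CPM in CD4 T. The strand setting of the counting is not given in the sources used here. If strand was not used, intronic Ubac2 reads in Gpr183 exons cannot be told apart from Gpr183 reads.

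Promoter windows of RefSeq (GRCm38.p6), 250 bases before to 50 bases after a start, were found for 9 of the 10 receptors, as 15 windows. The window listed first is shown for the members with a call that have one, since these are the promoters of the genes that differed. Capitals mark matches on either strand of AGGTCA, the half-site bound by many nuclear receptors (reverse complement TGACCT), of TGTGGT, the core bound by RUNX factors (reverse complement ACCACA), and of GAGGAA, a core bound by PU.1 (reverse complement TTCCTC). Of 32851 windows over all genes, 16.3% hold AGGTCA, 16.8% hold TGTGGT and 28.3% hold GAGGAA.
Gpr183 (chr14:121965144-121965443, minus strand): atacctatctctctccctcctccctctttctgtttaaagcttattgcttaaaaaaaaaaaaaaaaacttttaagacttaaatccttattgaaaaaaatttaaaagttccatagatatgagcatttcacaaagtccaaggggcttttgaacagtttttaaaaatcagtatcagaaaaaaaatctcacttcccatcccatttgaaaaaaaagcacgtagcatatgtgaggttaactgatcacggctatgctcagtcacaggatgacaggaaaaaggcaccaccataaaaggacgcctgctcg
Ffar2 (chr7:30823726-30824025, minus strand): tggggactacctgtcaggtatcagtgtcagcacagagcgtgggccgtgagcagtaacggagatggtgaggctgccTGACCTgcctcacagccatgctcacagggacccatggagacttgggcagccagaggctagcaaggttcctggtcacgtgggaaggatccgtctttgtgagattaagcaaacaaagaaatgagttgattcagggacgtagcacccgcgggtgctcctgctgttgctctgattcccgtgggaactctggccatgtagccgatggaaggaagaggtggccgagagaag
Gpr65 (chr12:98268385-98268684, plus strand): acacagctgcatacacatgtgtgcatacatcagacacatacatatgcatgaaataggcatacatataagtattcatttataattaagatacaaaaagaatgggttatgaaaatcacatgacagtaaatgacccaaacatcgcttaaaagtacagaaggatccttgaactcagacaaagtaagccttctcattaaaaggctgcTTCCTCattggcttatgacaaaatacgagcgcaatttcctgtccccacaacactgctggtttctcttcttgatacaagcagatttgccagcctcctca
Gpr35 (chr1:92972869-92973168, plus strand): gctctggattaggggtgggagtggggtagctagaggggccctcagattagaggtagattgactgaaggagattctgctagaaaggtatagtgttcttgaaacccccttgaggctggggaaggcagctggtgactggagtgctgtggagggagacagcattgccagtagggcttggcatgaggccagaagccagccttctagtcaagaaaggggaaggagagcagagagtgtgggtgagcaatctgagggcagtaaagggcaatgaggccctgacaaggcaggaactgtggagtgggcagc
The Gpr183 window holds none of the 3 motifs and has 35.3% G and C. The first Ffar2 window holds 1 AGGTCA match, and so does each of the last pair of its 4 windows, which overlap. The Gpr65 window holds 1 GAGGAA match at position -48 from the start. The first Gpr35 window holds none, and the second holds 1 TGTGGT match and 2 GAGGAA matches. A match is a description of these letters and no evidence of binding.

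Ffar2, also called Gpr43, encodes a receptor for short-chain fatty acids such as acetate and propionate. Ffar2 (NCBI gene 233079, chromosome 7, 30818031 to 30823775 on the minus strand) had 873, 701 and 754 counts in ILC3, against 2 and 0 counts in CD4 T. These are 31.4, 44.8 and 44.0 CPM in ILC3, against 0.0791 and 0 CPM in CD4 T. Every ILC3 library held at least 701 counts, and the CD4 T libraries were at the limit that a count of 0 allows. Summed over libraries and scaled by the TMM-adjusted library sizes, the counts were 842 times as high in ILC3. The exact 95% counting interval was 233 to 6953. The fitted log2 fold change was 9.63 (standard error 0.831, edgeR adjusted p of 0.00224). It was 8.89 without CD4 T replicate 2, and it has no measured size without CD4 T replicate 1, since the remaining library held no count. Ffar2 passed under every alternative tried.

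Its neighbour Ffar3, a related fatty acid receptor gene, had no count in any library. Neither had Ffar1, the receptor for medium- and long-chain fatty acids. Both are known from other tissues, such as gut endocrine cells.

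Gpr65 encodes a proton-sensing receptor that responds to acid surroundings. Gpr65 (NCBI gene 14744, chromosome 12, 98268635 to 98276722 on the plus strand) stood at 914, 741 and 798 CPM in ILC3, against 260 and 202 CPM in CD4 T. The groups did not overlap. The mean was 818 ± 88.1 CPM in ILC3 (SD, n = 3), against 231 ± 40.9 CPM in CD4 T (SD, n = 2), for a log2 fold change of 1.83 (standard error 0.308, edgeR adjusted p of 0.0156), or 3.54-fold. The call ended without ILC3 replicate 1 (0.0607), 2 (0.0594) or 3 (0.0562). It also ended under scaling by library size alone (0.0668), while the log2 fold change stayed between 1.35 and 2.02 over the alternatives.

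Gpr34 encodes a receptor for lysophosphatidylserine, a signalling lipid. Gpr34 (NCBI gene 23890, chromosome X, 13622650 to 13640859 on the plus strand) was at 63.9, 72.7 and 95.5 CPM in ILC3, against 32.4 and 25.2 CPM in CD4 T. The lowest ILC3 value was above the higher CD4 T value. The mean was 77.4 ± 16.3 CPM in ILC3 (SD, n = 3), against 28.8 ± 5.04 CPM in CD4 T (SD, n = 2), for a log2 fold change of 1.42 (standard error 0.325, edgeR adjusted p of 0.0372). Leaving out any 1 of the 5 libraries ended the call: the adjusted p was 0.0766, 0.095 and 0.0919 without ILC3 replicates 1, 2 and 3, and 0.0729 and 0.0659 without CD4 T replicates 1 and 2. With library size alone the log2 fold change was 0.91 (adjusted p = 0.14). Gpr34 lies inside the span of Cask on the opposite strand, with no shared exon bases, and Cask had 0 to 6 counts per ILC3 library and 60 and 62 in CD4 T.

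P2ry10 encodes another lysophosphatidylserine receptor of lymphocytes. P2ry10 (NCBI gene 78826, chromosome X, 107088492 to 107104974 on the plus strand) stood at 871, 823 and 1002 CPM in ILC3, against 477 and 490 CPM in CD4 T. The groups did not overlap, but the log2 fold change of 0.89 did not pass (standard error 0.282, edgeR adjusted p of 0.0772), and its 95% interval ran from 0.22 to 1.57. It passed in the DESeq2 Wald test (adjusted p = 0.000778), in limma-voom (0.0256) and without CD4 T replicate 2 (0.0479), and with library size alone it was 0.40 (adjusted p = 0.488). The related gene P2ry10b, which lies next to it, was at 0.54, 4.03 and 13.9 CPM in ILC3, against 6.49 and 6.00 CPM in CD4 T. Reads of these related copies may be split between them.

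Gpr35 was the receptor called lower in ILC3. It encodes a receptor for which tryptophan products such as kynurenic acid are candidate ligands. Gpr35 (NCBI gene 64095, chromosome 1, 92948052 to 92986391 on the plus strand) had 7, 5 and 0 counts in ILC3, against 609 and 148 counts in CD4 T. These are 0.252, 0.32 and 0 CPM in ILC3, against 24.1 and 8 CPM in CD4 T. The ILC3 values were near the limit of a count of 0, and CD4 T replicate 1 was well above CD4 T replicate 2. The log2 fold change was -6.34 (standard error 1.24, edgeR adjusted p of 0.0241). The call did not hold without CD4 T replicate 1 (log2 -5.33, adjusted p = 0.163), ILC3 replicate 1 (log2 -6.63, 0.0738) or ILC3 replicate 2 (log2 -6.80, 0.0664). The antisense gene 9430060I03Rik overlaps the Gpr35 span without shared exon bases and was at 4.03 to 7.80 CPM in ILC3, against 0.237 and 5.89 CPM in CD4 T.

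P2rx7 encodes the ion channel opened by extracellular ATP, which is known to trigger death of T cells and inflammasome activation in macrophages. P2rx7 (NCBI gene 18439, chromosome 5, 122643927 to 122692336 on the plus strand) was at 17.8, 15.9 and 14.5 CPM in ILC3, against 44.4 and 29.5 CPM in CD4 T. All ILC3 values were below both CD4 T values. The log2 fold change of -1.20 did not pass (standard error 0.352, edgeR adjusted p of 0.0645, 95% interval -2.04 to -0.36). It passed in the DESeq2 Wald test (0.0136), with library size alone (log2 -1.69, adjusted p = 0.0466) and without CD4 T replicate 2 (log2 -1.46, 0.0416), and it was -0.87 without CD4 T replicate 1 (adjusted p = 0.237). The macrophage and monocyte markers summed to 170 to 219 CPM in ILC3, against 2106 and 3077 CPM in CD4 T. Like Gpr35 and P2rx7, they were lower in ILC3, and so was the sum of the plasmacytoid dendritic markers. Between the CD4 T libraries the macrophage and monocyte sum went the other way from both receptors. The part of these markers in the receptor values was not tested.

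**Figure D2:**
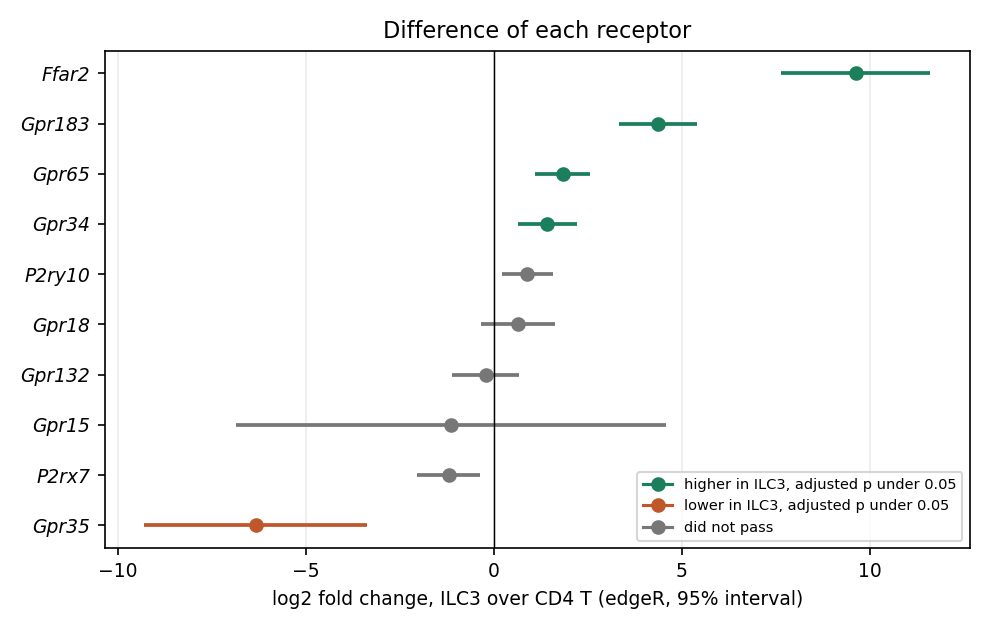
Log2 fold change of each receptor, ILC3 over CD4 T, from the edgeR fit, with its 95% interval, in green where higher and orange where lower at an adjusted p under 0.05 and grey where it did not pass. Ffar2 at 9.63 and Gpr183 at 4.37 lay farthest to the right, Gpr35 at -6.34 farthest to the left, and the interval of Gpr15 ran from -6.87 to 4.58.

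Gpr18, Gpr132 and Gpr15 had groups that overlapped. Gpr18 encodes a receptor with proposed lipid ligands, known from intraepithelial lymphocytes. Gpr18 (NCBI gene 110168, chromosome 14, 121911434 to 121915888 on the minus strand) stood at 168, 153 and 111 CPM in ILC3, against 57.2 and 127 CPM in CD4 T. CD4 T replicate 2 lay inside the ILC3 range, and the log2 fold change was 0.65 (standard error 0.413, edgeR adjusted p of 0.324, 95% interval -0.34 to 1.63). It was 1.34 without CD4 T replicate 2 and 0.19 without CD4 T replicate 1. Gpr18 and Gpr183 are neighbours, and both lie inside Ubac2 on the other strand.

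Gpr132 encodes a receptor of immune cells for which oxidised fatty acids and lactate are proposed ligands. Gpr132 (NCBI gene 56696, chromosome 12, 112850873 to 112868416 on the minus strand) was at 150, 121 and 130 CPM in ILC3, against 213 and 97.9 CPM in CD4 T. The ILC3 libraries fell between the CD4 T libraries, and the log2 fold change was -0.22 (standard error 0.376, edgeR adjusted p of 0.737, 95% interval -1.12 to 0.68). Without CD4 T replicate 1 it was 0.45, with the opposite sign.

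Gpr15 encodes a receptor that guides T cells to the large intestine. Its known ligand is a secreted protein, so it is the member that the name of the group describes least. Gpr15 (NCBI gene 71223, chromosome 16, 58716643 to 58718872 on the minus strand) had 0, 16 and 49 counts in ILC3, against 0 and 106 counts in CD4 T. Each group had a library without a count, which allows up to 0.108 CPM in ILC3 replicate 1 and 0.119 CPM in CD4 T replicate 1. The highest values were 2.86 CPM in ILC3, against 5.73 CPM in CD4 T. The log2 fold change was -1.15 (standard error 2.40, edgeR adjusted p of 0.785), and its 95% interval from -6.87 to 4.58 leaves its direction unmeasured at this depth and number of libraries.

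Long noncoding RNA genes of RefSeq also overlap Ffar2 (Gm32236), Gpr18 (Gm46485) and Gpr132 (Gm30461), and the microRNA gene Mir8115 shares 119 exon bases with P2rx7. These were not analysed here.

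The CD4 T libraries differed from each other in these receptors. Gpr183, Gpr18 and Gpr15 were higher in CD4 T replicate 2, and so was the sum of the 6 T cell markers, at 1028 CPM in replicate 1 and 2511 CPM in replicate 2. Cd3g, at 279 and 1308 CPM in replicates 1 and 2, differed most, and Cd4 went the other way, at 142 and 89.9 CPM. Gpr35, Gpr132, P2rx7, Gpr65 and Gpr34 were higher in CD4 T replicate 1, and so was the sum of the plasmacytoid dendritic markers, at 2291 and 1836 CPM in replicates 1 and 2. Among these plasmacytoid markers Tcf4 differed most in CPM, at 467 and 168, and Pacsin1 by ratio, at 63.6 and 16.4 CPM. Only Siglech went the other way, at 744 and 813 CPM. The macrophage and monocyte markers summed to 2106 CPM in replicate 1 and 3077 CPM in replicate 2, and did not move together. Lyz2, at 657 and 1590 CPM, differed most in CPM, and C1qb, at 77.0 and 278 CPM, differed most by ratio. Cd68 and Cd14 were also higher in replicate 2. Adgre1, Csf1r, Itgam, C1qa and C1qc were higher in replicate 1. P2ry10, at 477 and 490 CPM, lay closest together by ratio. The part of these markers in the values was not tested.

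**Figure D3:**
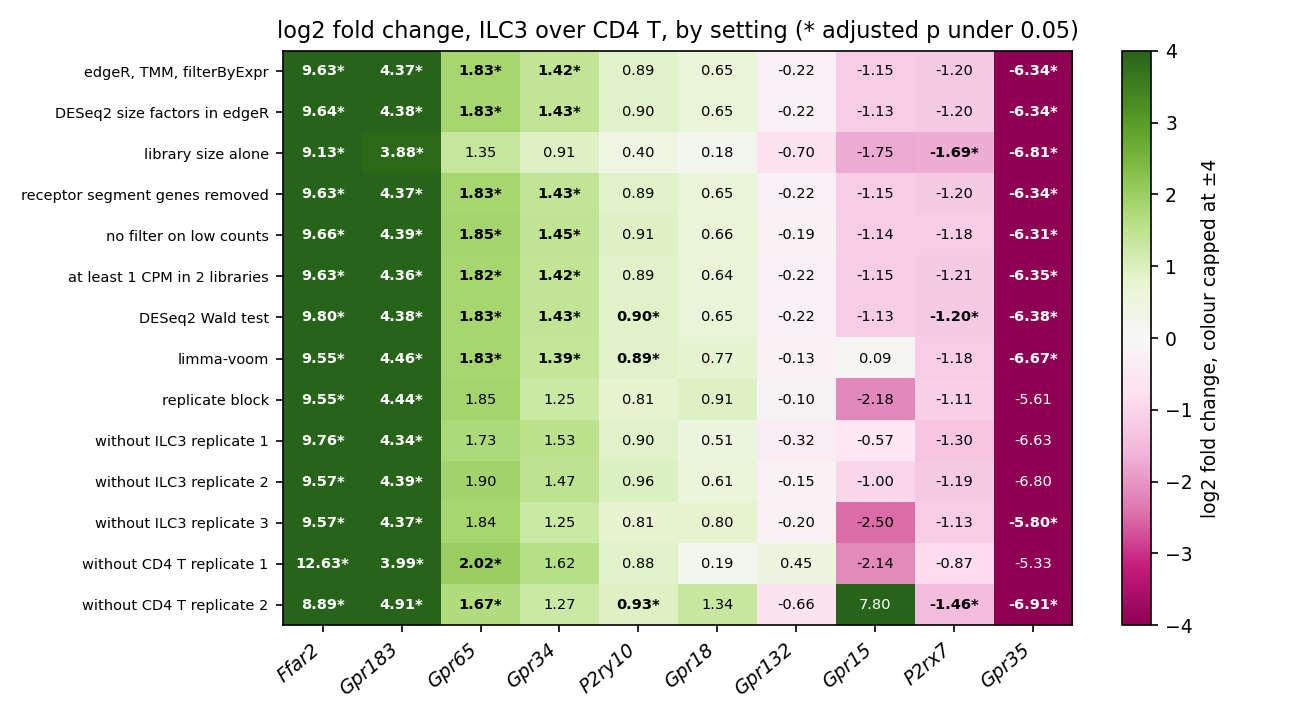
Log2 fold change, ILC3 over CD4 T, of each receptor (columns) under each setting (rows), with an asterisk where the adjusted p was under 0.05 and colour capped at 4 in size. Ffar2 and Gpr183 carried an asterisk in every row, and Gpr34 lost it in each row that leaves out a library. The values of Ffar2 without CD4 T replicate 1 (12.63) and of Gpr15 without CD4 T replicate 2 (7.80) were fitted against a library with no count and have no measured size.

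Levels of different receptors were compared as CPM per kilobase of exon, with exon lengths from the GENCODE M21 basic annotation. In ILC3 the order was Gpr183 at 1018 ± 20.5, Gpr65 at 395 ± 42.6, P2ry10 at 306 ± 31.5, Gpr18 at 96.1 ± 19.7, Gpr132 at 53.9 ± 5.82, Gpr34 at 37.0 ± 7.81, Ffar2 at 15.8 ± 2.95, P2rx7 at 2.90 ± 0.302, Gpr15 at 0.79 ± 0.885 and Gpr35 at 0.0426 ± 0.0377 CPM per kilobase (SD, n = 3). Neighbours in that order did not overlap between libraries, except Gpr15 and Gpr35. By level per kilobase Gpr183 ranked 99 among 12209 tested genes with an exon length in ILC3 and 1215 in CD4 T. It made up 52.0% to 54.1% of the summed level per kilobase of the 10 receptors in the ILC3 libraries, against 7.19% and 13.5% in the CD4 T libraries.

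In CD4 T the order was led by P2ry10 at 165 ± 3.08 and Gpr65 at 111 ± 19.8 CPM per kilobase (SD, n = 2). Gpr132 at 62.7 ± 32.8, Gpr18 at 61.4 ± 32.8 and Gpr183 at 49.3 ± 21.4 CPM per kilobase followed, and their libraries overlapped. Gpr34 at 13.8 ± 2.41 CPM per kilobase was above P2rx7 at 6.69 ± 1.92, which overlapped Gpr35 at 3.59 ± 2.54. Gpr15 at 1.75 ± 2.47 CPM per kilobase overlapped both Gpr35 and Ffar2, and Ffar2 had the lowest mean at 0.0156 ± 0.022 CPM per kilobase. With exon lengths of the comprehensive annotation Gpr18 was above Gpr132 in CD4 T, at 61.4 and 57.2 CPM per kilobase, and no other place in either order changed.

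**Figure D4:**
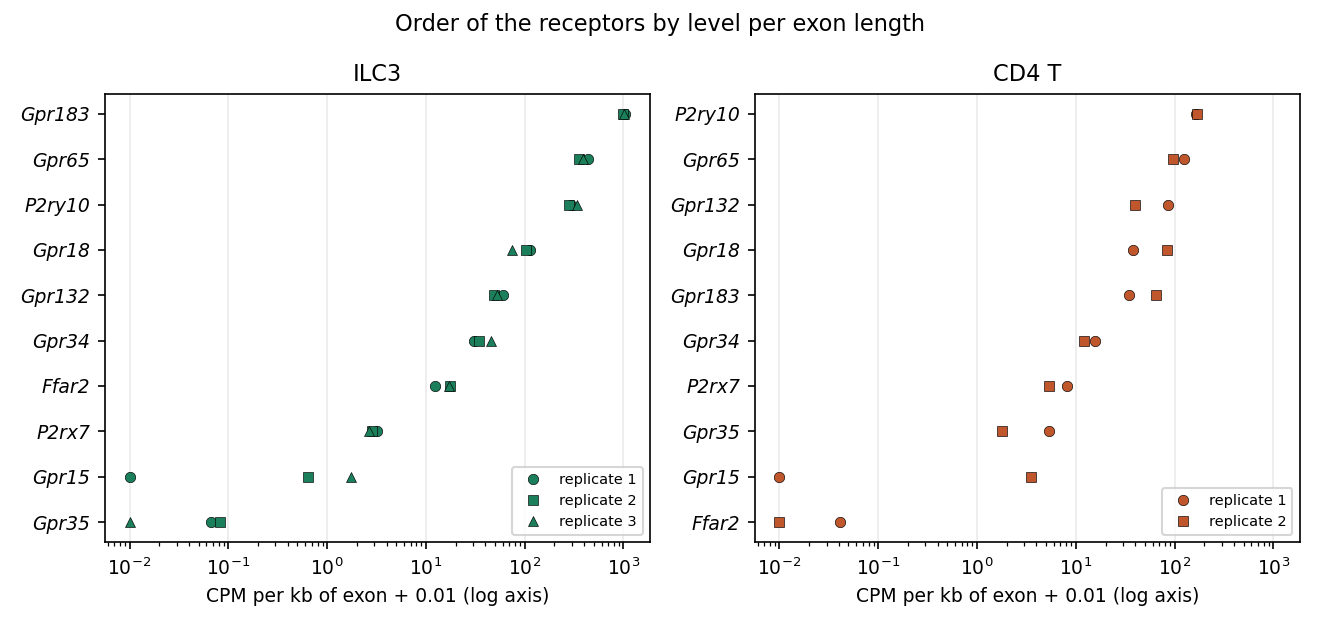
Level of each receptor as CPM per kilobase of exon plus 0.01 on a log axis, with a point for each library, ordered by the group's mean, ILC3 on the left and CD4 T on the right. Gpr183 led in ILC3 at 1018 CPM per kilobase, and P2ry10 led in CD4 T at 165 CPM per kilobase.

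Of 6 listed genes that make or break down the GPR183 ligand or make or sense related oxysterols, 4 were tested. Of these 4, 0 were higher and 1 was lower in ILC3, with a median log2 fold change of -0.83. Cyp27a1, the sterol hydroxylase of macrophages and liver, had no count in ILC3 and was 23.5 and 15 CPM in CD4 T, at least 402-fold lower in ILC3 (edgeR adjusted p = 0.00972). Its call did not hold without CD4 T replicate 1 (adjusted p = 0.0596), and the limit was 217-fold without ILC3 replicate 1. Ch25h, which makes the precursor of the ligand, had 3, 1 and 0 counts in ILC3, against 1 and 40 in CD4 T, and was not tested. Cyp7b1, the next enzyme, had 1, 13 and 0 counts in ILC3 and 0 and 51 in CD4 T (edgeR adjusted p = 0.572).

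Of 13 other metabolite and proton receptors, 5 had no count in any library, 4 were tested, 0 were higher and 2 were lower in ILC3. The median log2 fold change of the 4 was -8.48, or -5.83 with genes at 0 to 3 counts in a group set at their bound or counted ratio. Gpr4, a proton sensor related to Gpr65, had no count in ILC3 and was 4.51 and 1.78 CPM in CD4 T, at least 67.8-fold lower (edgeR adjusted p = 0.0493), and leaving out any 1 of the 5 libraries ended that call (0.0752 to 0.25). Its limit was 36.7-fold without ILC3 replicate 1 and 36-fold without CD4 T replicate 1. Gpr65 was higher in ILC3 while Gpr4 was lower, each by its own test.

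Of 11 other genes of lysophospholipid signalling, 9 were tested, 2 were higher and 0 were lower in ILC3, with a median log2 fold change of -0.18. Pla1a, an enzyme that makes lysophosphatidylserine, the ligand of GPR34 and P2Y10, was 22.0, 22.8 and 27.1 CPM in ILC3, against 3.01 and 0.649 CPM in CD4 T. The log2 fold change was 3.70 (standard error 0.763, edgeR adjusted p of 0.0276). It was 5.20 without CD4 T replicate 1 and 3.00 without CD4 T replicate 2, and the call ended when ILC3 replicate 1 (0.0756), 2 (0.0758) or 3 (0.0685) was left out. Lpar6, a lysophosphatidic acid receptor, was 118, 168 and 218 CPM in ILC3, against 55.4 and 56.7 CPM in CD4 T (log2 1.58, standard error 0.351, edgeR adjusted p of 0.0339), and leaving out any 1 of the 5 libraries ended the call (0.05 to 0.114). Gpr174, a further lysophosphatidylserine receptor, was named after its values were seen and was 0.036, 2.94 and 0 CPM in ILC3, against 25.5 and 33.7 CPM in CD4 T (log2 -4.93, edgeR adjusted p = 0.0992).

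Of 17 other nucleotide and adenosine receptors, 12 were tested, 1 was higher and 3 were lower in ILC3, with a median log2 fold change of -2.64. P2ry1, an ADP receptor, had 265, 228 and 263 counts in ILC3 and none in CD4 T, at least 182-fold higher in ILC3 (edgeR adjusted p = 0.00749). Its limit was 77-fold without CD4 T replicate 1 and 105-fold without CD4 T replicate 2. P2ry12, another ADP receptor, had no count in ILC3 and was 33.2 and 11.7 CPM in CD4 T, at least 486-fold lower (edgeR adjusted p = 0.0113). P2ry6, a receptor for UDP, had no count in ILC3 and was 12.3 and 6.33 CPM in CD4 T, at least 197-fold lower (edgeR adjusted p = 0.0198). P2ry14, a receptor for UDP-glucose, was 9.04, 10.3 and 19.3 CPM in ILC3, against 77.3 and 88.4 CPM in CD4 T (log2 -2.69, standard error 0.409, edgeR adjusted p of 0.0118).

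The calls of P2ry12 and P2ry6 ended when CD4 T replicate 1 was left out (0.0748 and 0.122, edgeR adjusted p), and that of P2ry14 did not hold without ILC3 replicate 2 (0.0503). Without CD4 T replicate 1 the limits of P2ry12 and P2ry6 were 236-fold and 128-fold, and without ILC3 replicate 1 they were 263-fold and 107-fold. P2ry12 is known from microglia and other myeloid cells, and the macrophage and plasmacytoid dendritic markers given above were lower in ILC3 in the same libraries, with a part that was not tested. P2rx4, the ATP-gated channel gene next to P2rx7, was 70.2, 60.0 and 70.1 CPM in ILC3, against 44.2 and 48.9 CPM in CD4 T (log2 0.52, edgeR adjusted p = 0.229).

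**Figure D5:**
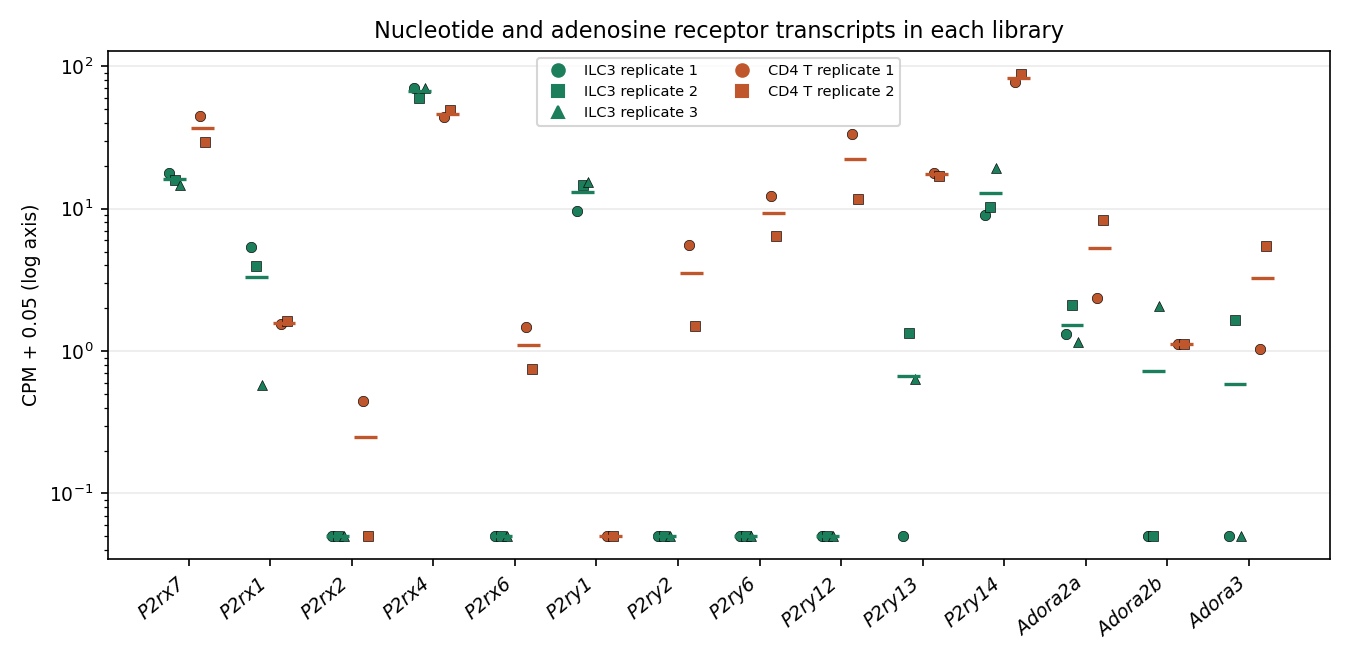
CPM plus 0.05 on a log axis of P2rx7 and of the other nucleotide and adenosine receptors with more than 3 counts over all libraries, with a point for each library and a bar at each group's mean, ILC3 left of CD4 T. P2ry1 was at 9.55 to 15.3 CPM in ILC3 and at 0 in CD4 T, and P2ry6 and P2ry12 were at 0 in ILC3.

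None of the 8 tested genes of nucleotide release and breakdown was called (10 listed, median log2 fold change -0.69). Cd38, which breaks down NAD, was 177, 147 and 117 CPM in ILC3, against 143 and 132 CPM in CD4 T (log2 0.09, edgeR adjusted p = 0.86). Nt5e, which makes adenosine, was 64.4 ± 15.2 CPM in ILC3 (SD, n = 3), against 62.4 ± 20.7 CPM in CD4 T (SD, n = 2). Its log2 fold change was 0.05 at an edgeR adjusted p of 0.946.

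Of 7 genes downstream of P2X7 and the inflammasome, 1 was higher and 1 lower in ILC3, with a median log2 fold change of -0.76. Il1b, the cytokine released by the inflammasome, was 61.1, 53.2 and 101 CPM in ILC3, against 1000 and 675 CPM in CD4 T (log2 -3.55, standard error 0.396, edgeR adjusted p of 0.00494). Nek7, a kinase that binds NLRP3, was 89.3, 50.7 and 58.2 CPM in ILC3, against 15.5 and 23.2 CPM in CD4 T (log2 1.77, standard error 0.396, edgeR adjusted p of 0.0349), and its call ended when any 1 of the ILC3 libraries (0.0698 to 0.0926) or CD4 T replicate 1 (0.131) was left out, and with library size alone (0.119).

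Of 21 listed genes of G protein signalling 19 were tested, 1 was higher and 4 were lower in ILC3, with a median log2 fold change of -0.82. Rgs2, which shortens signals through Gq, was 1955, 1760 and 1836 CPM in ILC3, against 310 and 534 CPM in CD4 T (log2 2.13, standard error 0.363, edgeR adjusted p of 0.016). Rgs10, another regulator of G protein signals, was 111, 141 and 136 CPM in ILC3, against 451 and 520 CPM in CD4 T (log2 -1.91, standard error 0.273, edgeR adjusted p of 0.0102). Gnai2, the main inhibitory G protein subunit of lymphocytes, was 49.5 ± 8.06 CPM in ILC3 (SD, n = 3), against 161 ± 57.7 CPM in CD4 T (SD, n = 2). Its log2 fold change was -1.70 at an edgeR adjusted p of 0.0228. Grk2, a receptor kinase that ends signalling, was 11.7 ± 2.2 CPM in ILC3 (SD, n = 3), against 60.2 ± 32.6 CPM in CD4 T (SD, n = 2). Its log2 fold change was -2.37 at an edgeR adjusted p of 0.0189.

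The calls of Rgs2, Gnai2 and Grk2 ended when any 1 of the ILC3 libraries was left out (edgeR adjusted p from 0.056 to 0.0861). Those of Gnai2 and Grk2 also ended without CD4 T replicate 1 (log2 -1.27 and -1.67, adjusted p = 0.0685 and 0.0821).

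The tested genes with profiles most like those of the 4 called receptors with the smallest p were found by the root mean square difference of centred log2 CPM over the 5 libraries, among 11506 genes. Klrk1, which encodes the activating receptor NKG2D, was closest to Gpr183, at a difference of 0.0951. It was 733, 694 and 700 CPM in ILC3, against 20.7 and 47.5 CPM in CD4 T. Ncoa7 at 0.185 and Iltifb at 0.194 followed, and reads of Iltifb may be split with its near-identical copy Il22. Psd2 (0.356), Cntn1 (0.362) and Serpinb1c (0.405) were closest to Ffar2, all near 0 in CD4 T. Vps37a (0.03), Pde7b (0.0958) and N6amt1 (0.101) were closest to Gpr65. Rab7b (0.382), Actn1 (0.421) and Axl (0.446) were closest to Gpr35, and Axl, a receptor kinase known from macrophages and dendritic cells, was 0.72, 0.704 and 0.35 CPM in ILC3, against 69.8 and 28.7 CPM in CD4 T.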

How the data were processed

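The authors deposited whole-number counts for every gene in 5 RNA-seq libraries. These came from the low-input SMARTer kit, version 4, per the labels' protocols. The submitters' processing notes name STAR 2.3.0, CASAVA 1.8.2 and the build mm10, which is GRCm38 at UCSC. How reads were counted, with which annotation and strand setting, is not given in the sources used here. RefSeq GRCm38.p6 matched 25275 of 27179 identifiers, and the other 1904 stayed in every fit.

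Counts were filtered with filterByExpr, scaled with TMM and fitted with edgeR 4.0.16 in R 4.3.3 over 12747 genes without covariates, with 3 residual degrees of freedom. The SE is the log2 fold change divided by the square root of F. The alternatives used limma 3.58.1 and DESeq2 1.42.0. The fitting was tested on simulated data.

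The receptors, lists and motifs were chosen with earlier results of these data known. All 10 receptors are named. From each list the rule takes up to 4 called genes with the smallest p, in both directions where both exist, or otherwise the 2 with the highest mean CPM. It adds overlapping or neighbouring related genes and the 3 genes most like each of 4 receptors. Ffar1, Ch25h, Cyp7b1 and Gpr174 were added after their values were seen. Some genes under this rule are not reported here.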

Additional observations from a re-analysis of the deposited data

How the results depend on the processing

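Of the 130 recomputed log2 fold changes of single receptors, 105 kept direction and side of the threshold, 16 lost the call, 6 gained one and 3 changed sign. Ffar2 and Gpr183 passed in all 13 alternatives. The number of receptors called higher was 4, but 2 with library size alone and 5 in the DESeq2 Wald test and in limma-voom. The number called lower was 1, and 2 with library size alone and in the DESeq2 Wald test. Leaving out 1 library gave 2 to 4 higher and 0 to 2 lower. Over all genes, 824 were higher and 919 lower. These counts were 384 and 1491 with library size alone, 1914 and 1858 in the DESeq2 Wald test and 1317 and 1402 in limma-voom, and 1250 were higher with no filter. Leaving out 1 library gave 269 to 1712 higher and 306 to 960 lower. With library size alone the median log2 fold change of all genes was -0.59 in place of -0.10. Gpr15 was at 0.09 in limma-voom. Without single libraries it ranged from -2.50 to -0.57 where both groups held counts, and Gpr132 from -0.66 to 0.45. The 7.80 of Gpr15 without CD4 T replicate 2 has no measured size, since the remaining CD4 T library was at 0. Among the fits that left out 1 library, the most genes in each direction were called without CD4 T replicate 2. The cause of these changes was not tested.

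The labels number the replicates of both groups, but nothing ties equal numbers to a mouse or day, and deviations of same-numbered libraries from their group means correlated at -0.0235 and -0.0338 across genes. With the replicate block 2 receptors were called higher and 0 lower, and over all genes 215 and 305, with 1 residual degree of freedom. Only 2 CD4 T libraries limit the precision of every difference, and receptors at a few counts, such as Gpr15, cannot be ranked between groups at this depth.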
